A study of Mus musculus with 8 samples.

Results

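Mitosis genes are described here in the endothelial cells (ECs) of mouse breast tumours, 3 h after an intratumoural (i.t.) injection of PBS or cGAMP. The methods name the compound as 3′3′cGAMP, a cyclic dinucleotide that activates STING, an adaptor of innate immunity. The 36 members were a named list, chosen for their roles in cell division, of the 20408 genes that any library listed. All 36 were listed in all 8 libraries. Levels were read in cells with at least 1 Pecam1 transcript (Pecam1 encodes CD31, the antigen used for the sort), and again inside cells in which 3 or more of the 6 genes Mki67, Top2a, Birc5, Ube2c, Cenpf and Cdk1 were detected. These are called mitotic cells below, a name for the rule, since the genes are also on in the last part of DNA replication and in G2.

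To divide, a cell first copies its DNA and then enters mitosis, which the kinase CDK1 starts once it is bound to a B-type cyclin. The chromosomes are condensed and attached to a spindle of microtubules, and a checkpoint holds the cell until every chromosome is attached. The anaphase-promoting complex then marks the B-type cyclins for destruction, and cytokinesis parts the daughter cells. Most ECs of a resting adult vessel are quiescent, whereas growing tumour vessels contain dividing ECs. Many mitosis genes are held off in resting cells by the DREAM complex and are switched on late in the cell cycle by B-MYB and FOXM1, through promoter elements named CHR and CCAAT, the latter bound by the factor NF-Y.

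The study set MMTV-PyMT mice, in which the mouse mammary tumour virus promoter drives the polyoma middle T oncogene in mammary epithelium and tumours arise spontaneously, beside mice that carried implanted tumours of the same origin. Spontaneous tumours were injected at 9 weeks of age, and for the implanted tumours, cells of spontaneous tumours were kept in culture for 2 days and placed in the mammary fat pad of females of 8 to 9 weeks. There were 4 groups of 2 libraries, each model with PBS or with cGAMP (named spontaneous PBS, implanted cGAMP and so on), with 2 mice collected per group, and live CD45-/CD31+ cells were sorted. The labels name C57BL/6 as the strain of all libraries and adult as the age, the methods name FVB mice, and in each source the strain is the same for both models. The implanted model rests on tumour cells that had passed through culture.

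Of 8204 deposited cells, 7159 (87.3%) had a Pecam1 transcript, 601 to 1529 per library. The libraries held 7863535 to 16506086 UMIs (unique molecular identifiers, each standing for 1 counted molecule). Replicate 1 of implanted cGAMP stood apart, with a median of 3049 UMIs per Pecam1-positive cell against 9523 to 14707.5 in the others. It also held the most Epcam (101 CPM, the UMIs of each cell scaled to the same total and averaged over cells, against 9.35 to 49.7) and Ptprc (24.7 against 0.160 to 10.2), which mark epithelial and immune cells. The mural marker Rgs5 reached 287 to 410 CPM in replicate 2 of spontaneous PBS and both spontaneous cGAMP libraries, against 19.6 to 64.7 CPM in the others. The chemokine gene Ccl5 measured 0.242 to 4.84 CPM in the PBS libraries and 1288 to 2400 CPM in the cGAMP libraries, so treatment labels and values went together. In all, 7 cell barcodes were found in more than 1 library.

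The promoters are shown because CHR and CCAAT elements are the known controls of such genes. RefSeq sequences of GRCm38.p6, from 250 bases before to 50 bases after each annotated start, matched 32 of the 36 members with 34 promoters. Aurkb, Kif20a, Tpx2 and Pimreg had no entry. Both motifs were searched on both strands: TTTGAA (or TTCAAA), the core of CHR, and CCAAT (or ATTGG), the core bound by NF-Y. The 6 windows below, shown to 30 bases after the start and written 5′ to 3′ in the direction of the gene, belong to the 6 members with the highest mean level among those with both motifs. Capitals mark matches to either motif, and coordinates are of GRCm38.p6. They are Cdk1 at chr10:69352883-69353162 (minus strand), Top2a at chr11:99024160-99024439 (minus), Ube2c at chr2:164769679-164769958 (plus), Mki67 at chr7:135716350-135716629 (minus), Cenpa at chr5:30666636-30666915 (plus) and Cenpf at chr1:189688057-189688336 (minus).
Cdk1: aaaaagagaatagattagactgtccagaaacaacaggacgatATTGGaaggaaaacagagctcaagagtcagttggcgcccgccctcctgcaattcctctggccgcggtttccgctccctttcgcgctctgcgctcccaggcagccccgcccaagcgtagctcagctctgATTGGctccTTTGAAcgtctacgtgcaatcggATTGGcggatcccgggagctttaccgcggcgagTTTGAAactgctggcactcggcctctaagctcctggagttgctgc
Top2a: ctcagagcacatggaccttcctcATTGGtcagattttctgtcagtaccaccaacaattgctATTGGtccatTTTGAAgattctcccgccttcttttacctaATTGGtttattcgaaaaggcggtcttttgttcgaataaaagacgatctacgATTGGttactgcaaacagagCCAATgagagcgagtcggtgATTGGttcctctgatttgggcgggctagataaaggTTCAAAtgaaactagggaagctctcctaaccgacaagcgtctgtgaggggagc
Ube2c: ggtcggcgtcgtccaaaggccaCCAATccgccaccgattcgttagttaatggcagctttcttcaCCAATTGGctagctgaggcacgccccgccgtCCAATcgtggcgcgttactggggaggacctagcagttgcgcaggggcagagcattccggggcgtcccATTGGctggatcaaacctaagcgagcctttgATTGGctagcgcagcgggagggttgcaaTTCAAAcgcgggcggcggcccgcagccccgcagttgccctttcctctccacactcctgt
Mki67: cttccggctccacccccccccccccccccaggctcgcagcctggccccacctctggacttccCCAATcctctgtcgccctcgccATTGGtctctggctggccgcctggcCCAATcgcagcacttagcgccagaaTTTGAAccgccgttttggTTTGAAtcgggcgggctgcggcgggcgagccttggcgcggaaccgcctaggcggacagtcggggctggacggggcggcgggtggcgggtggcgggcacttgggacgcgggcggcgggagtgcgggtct
Cenpa: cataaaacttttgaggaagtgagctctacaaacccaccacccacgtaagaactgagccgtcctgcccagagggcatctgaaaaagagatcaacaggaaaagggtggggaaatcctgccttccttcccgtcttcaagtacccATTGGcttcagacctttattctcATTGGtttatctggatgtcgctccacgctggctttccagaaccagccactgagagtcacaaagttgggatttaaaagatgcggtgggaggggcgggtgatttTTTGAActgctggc
Cenpf: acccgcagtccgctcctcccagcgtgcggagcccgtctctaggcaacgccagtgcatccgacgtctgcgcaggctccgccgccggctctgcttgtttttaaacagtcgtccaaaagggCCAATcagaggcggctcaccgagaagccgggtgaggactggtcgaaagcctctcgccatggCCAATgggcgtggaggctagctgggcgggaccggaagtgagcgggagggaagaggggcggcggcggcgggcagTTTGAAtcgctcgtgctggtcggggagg

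A TTTGAA match stood in 29 of the 34 promoters of members (85.3%), against 17.9% of all 32851 promoters of that length. A CCAAT match stood in 29 of 34 as well (85.3%), against 37.4% of all. Both motifs stood in 26 of 34 (76.5%), which belong to 24 genes, against 6.95% of all promoters. In the Cdk1 window the TTTGAA matches began 71 and 15 bases before the start, and the CCAAT matches 208, 80 and 48 bases before it. In the Cenpa window TTTGAA lay 16 bases after the start. Within 50 bases of the start, a distance set after the matches were seen, TTTGAA was found in 76.5% of the members' promoters and in 4.94% of all. Birc5 and Nusap1 held neither motif in these windows. Among 46 other mitosis genes, 38 promoters matched and 34.2% of them held both motifs. Among 32 replication genes, 31 promoters matched, of which 6.45% held both motifs, 9.68% TTTGAA and 64.5% CCAAT. The matches are descriptions of letters, and binding was not measured.

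**Figure D1:**
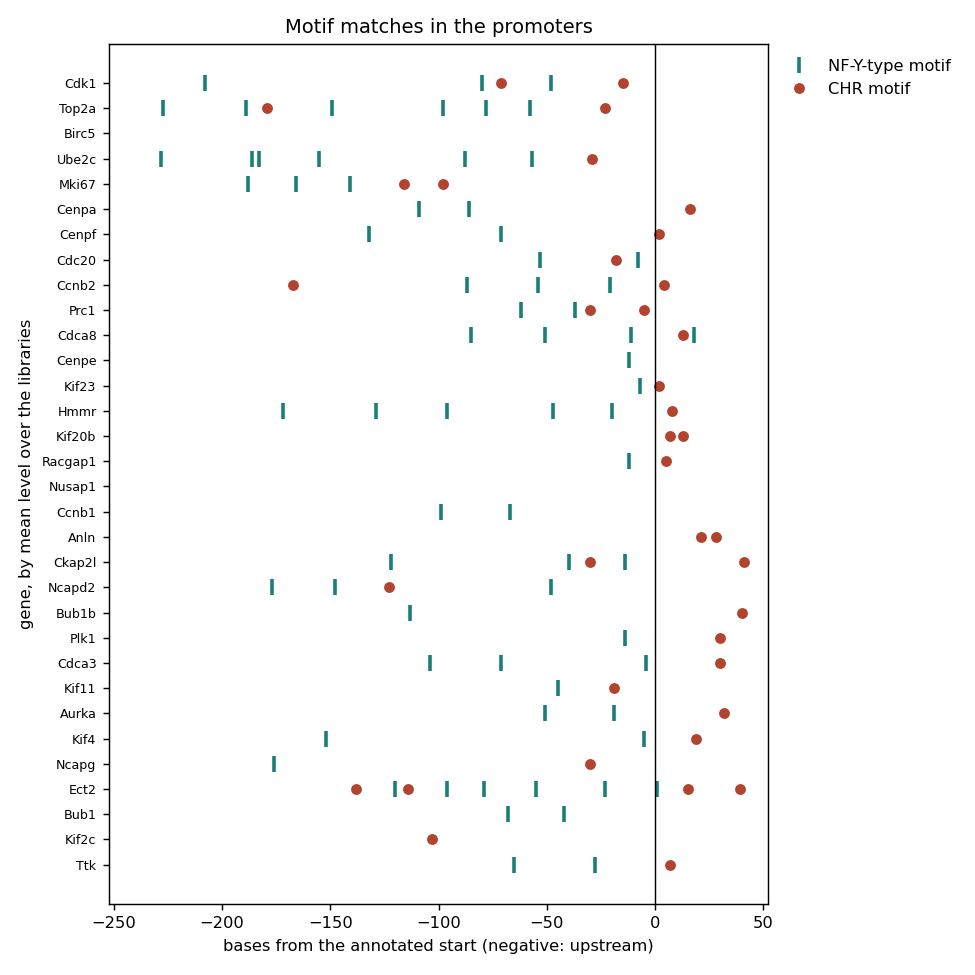
Each row is a member with a promoter in the RefSeq table, and each mark is a match to TTTGAA or CCAAT on either strand, placed by its distance in bases from the annotated start (0), from 250 bases before to 50 bases after it. TTTGAA marks gather around the start, with 76.5% of the promoters holding 1 within 50 bases of it, and CCAAT marks lie mostly upstream of them.

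Mitotic cells made up 5.60% (54 of 965) and 3.16% (19 of 601) of the Pecam1-positive cells in the spontaneous PBS libraries. After cGAMP they made up 1.79% (12 of 670) and 1.15% (8 of 693). In implanted tumours the shares were 9.6% (96 of 1000) and 11.2% (123 of 1097) after PBS, and 1.31% (20 of 1529) and 0.828% (5 of 604) after cGAMP. Each PBS library of a model held a larger share than each cGAMP library of that model, and the implanted PBS libraries held the largest shares of all 8. The Wilson 95% confidence intervals, which cover counting error only, ran from 4.31 to 7.23% and 2.03 to 4.88% (spontaneous PBS), 1.03 to 3.1% and 0.586 to 2.26% (spontaneous cGAMP), 7.93 to 11.6% and 9.48 to 13.2% (implanted PBS), and 0.848 to 2.01% and 0.354 to 1.92% (implanted cGAMP). The group means were 4.38% ± 1.72 and 1.47% ± 0.450 in spontaneous tumours and 10.4% ± 1.14 and 1.07% ± 0.340 in implanted tumours (SD, n = 2), 2.97-fold and 9.74-fold lower after cGAMP. With 2 libraries against 2, an exact two-sided permutation test cannot go below p = 0.333, the value it gave in each model, and with the labels permuted within both models it gave its smallest p, 0.0556.

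Because deeper cells show more genes, each cell was also thinned to 2000 UMIs, leaving out shallower cells (37.9% of the cells of replicate 1 of implanted cGAMP and 3.28 to 10.6% elsewhere). The mean shares were then 1.93% and 0.389% in spontaneous tumours and 5.48% and 0.158% in implanted tumours, PBS first. Without replicate 1 of implanted cGAMP the implanted difference was -9.58 percentage points, against -9.34 with it. Cells in which 10 or more of the 36 members were detected showed the same order: 4.66% and 2.66% (spontaneous PBS), 1.19% and 0.433% (spontaneous cGAMP), 8.10% and 10.1% (implanted PBS), 0.654% and 0.497% (implanted cGAMP).

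**Figure D2:**
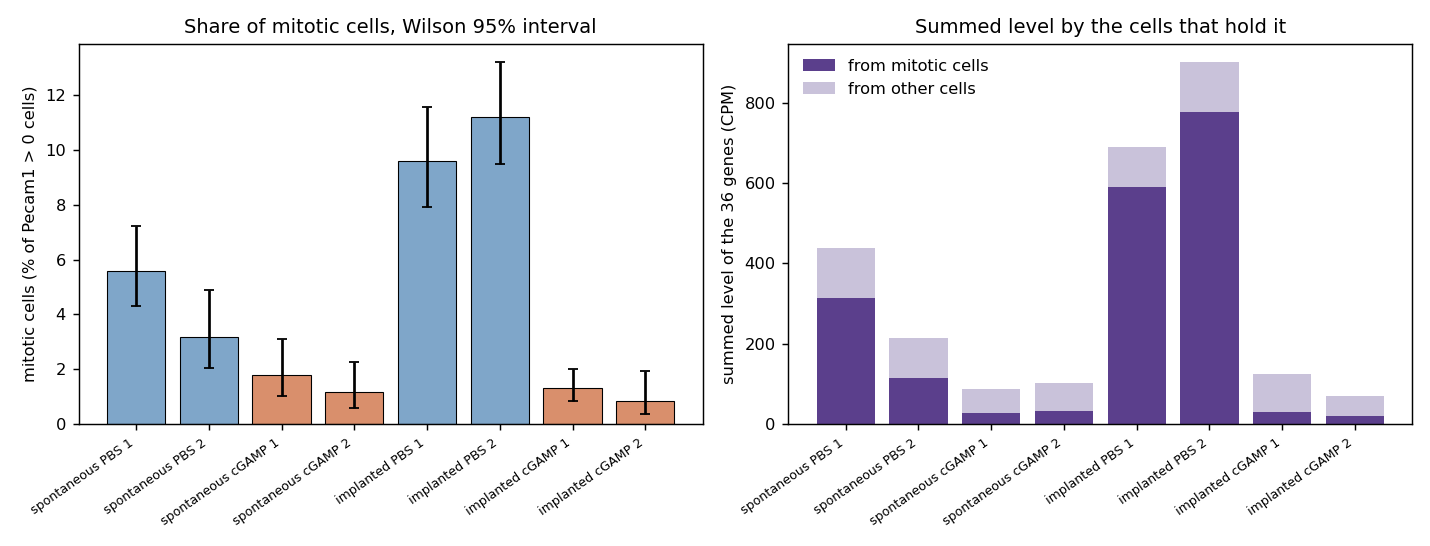
Left, the share of mitotic cells among Pecam1-positive cells in each of the 8 libraries, with Wilson 95% intervals. Right, the summed level of the 36 genes (CPM) in each library as stacked bars, split into the part held by mitotic cells (dark) and by other cells (pale), in which the dark part runs from 313 and 115 CPM to 26.5 and 33.0 CPM in spontaneous tumours and from 591 and 778 CPM to 28.8 and 18.7 CPM in implanted tumours, PBS first.

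The mitotic cells were 337 of the 7159 cells (4.71%), and they held 39005 of the 45302 UMIs of the 36 members (86.1%). For 15 members at least 90% of the UMIs lay in them, with the highest share for Pimreg (96.8%), Hmmr (96.5%) and Kif11 (95.7%). For 8 members the share was under 80%, and it was lowest for Ncapd2 (62.6%) and Cdk1 (63.2%). Inside mitotic cells, members were detected in 33.2% (Ttk) to 88.1% (Cdk1) of cells. Outside them detection ran from 0.205% (Kif2c) to 15.3% (Cdk1), and 15 members were found in under 1% of the 6822 other cells. The 6 rule genes are members, so their own place in this split follows from the rule.

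Mitotic cells carried endothelial transcripts. Cdh5, the endothelial cadherin gene, was detected in 325 of the 337. The summed level of 8 endothelial markers was 5521 to 7769 CPM across libraries, against 6380 to 7387 CPM in the other cells. Mitotic cells had the higher sum in 2 of 8 libraries, and Pecam1, which the selection required, is 1 of the 8 markers. Ptprc, the pan-leukocyte gene, was found in 5 mitotic cells (1.48%, against 2.35% of the other cells), Epcam in 71 (21.1% against 16.8%) and the mural gene Pdgfrb in 19 (5.64% against 4.29%). Over 11 epithelial markers the mitotic cells summed to 62.2 to 420 CPM and the other cells to 171 to 1187 CPM, with mitotic cells higher in 0 of 8 libraries. The sums over 9 mural markers were 108 to 1478 CPM against 187 to 896 CPM, higher in mitotic cells in 4 of 8 libraries. Over 7 fibroblast markers they were 4.66 to 790 CPM against 14.5 to 143 CPM, and over 12 immune markers 0 to 553 CPM against 16.9 to 272 CPM, each higher in mitotic cells in 5 of 8 libraries. The highest immune sum was that of the 5 mitotic cells of replicate 2 of implanted cGAMP. The mitotic cells were deeper, with library medians of 16966 to 36853 UMIs against 3004 to 14459 in the other cells. Doublets were not called, and their part in the values was not tested.

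Summed over the 36 members, the level was 439 and 214 CPM in spontaneous PBS, 87.8 and 101 CPM in spontaneous cGAMP, 691 and 901 CPM in implanted PBS, and 124 and 70.4 CPM in implanted cGAMP. No cGAMP library reached the lowest PBS library. The fold between group means was 3.47 in spontaneous and 8.20 in implanted tumours, PBS over cGAMP. The part held by mitotic cells differed by 7.20-fold and 28.9-fold, and the part held by all other cells by 1.74-fold and 1.52-fold. In PBS libraries 71.4 and 53.7% (spontaneous) and 85.5 and 86.3% (implanted) of the summed level came from mitotic cells, against 30.2 and 32.8% and 23.3 and 26.5% in the cGAMP libraries. A library mean thus joins how many cells divide with how much of each transcript those cells hold, and both are given separately below.

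Each gene was tested with limma on log2(mean CPM + 1), a scale that understates the change of low genes, over the 10424 genes that reached 5 CPM in 2 or more libraries, and called at a Benjamini-Hochberg adjusted p under 0.05. Of the 36 members 35 passed this filter and Ttk did not, and 7 of the 35 (Aurka, Bub1, Bub1b, Kif20a, Kif2c, Kif4 and Cdca3) passed only through the 2 implanted PBS libraries. These 7 entered the test because they were high in the group from which an implanted fall is measured. Their implanted calls below thus carry no weight of their own, although they also fell when all genes were tested without that filter. Without the implanted PBS libraries 14 of the 35 would have passed, so the entry of the rest rested on that group in part. The implanted calls of those members are limited in the same way. In implanted tumours 35 of 35 fell after cGAMP, where 16.4% of all tested genes were called lower, with a median change of -2.67 against -0.10 over all tested genes. In spontaneous tumours 8 of 35 fell, where 7.59% of all tested genes were called lower, with a median of -1.25 against -0.10. The 8 were Mki67, Top2a, Birc5, Cenpf, Cenpa, Nusap1, Prc1 and Anln. At an unadjusted p under 0.05, 26 members were lower, as were 2081 of the 10424 tested genes. The spontaneous count rested on single libraries: it was 2 (Top2a and Prc1) without replicate 1 of spontaneous PBS or without either spontaneous cGAMP library, 5 (of 28 tested) without either implanted PBS library, 12 without either implanted cGAMP library and 21 without replicate 2 of spontaneous PBS. With the UMIs summed over the cells of a library in place of the mean over cells, 33 fell. Calls over all genes rose as well, with 1968 of 10354 tested genes called lower on summed UMIs against 791 of 10424 in the main fit. Without an implanted PBS library the same 7 members no longer passed the filter: the implanted count was 20 of 28 without replicate 2 and 26 of 28 without replicate 1 of implanted PBS. Counting over all 36 members, cGAMP libraries lay below PBS libraries without overlap for 31 in spontaneous and 36 in implanted tumours, where 41.5% and 41.6% of all tested genes did so. Tested without the filter on low values, 4 of 36 fell in spontaneous tumours (Top2a, Prc1, Ttk and Anln), where 2.68% of genes were called lower, and 35 of 36 in implanted tumours (all but Racgap1), where 8.03% were.

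**Figure D3:**
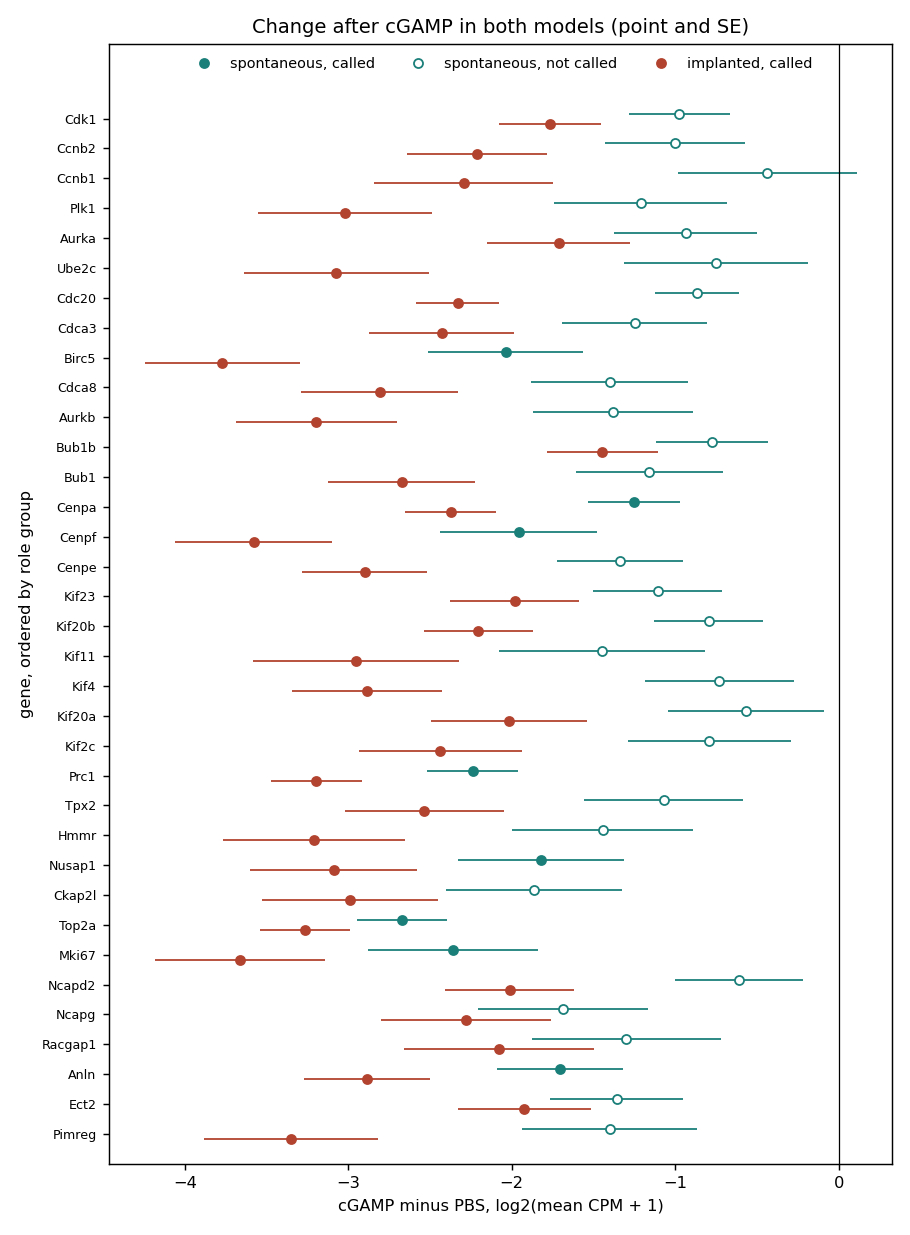
Points show the change from PBS to cGAMP on the log2(mean CPM + 1) scale for the 35 tested members, in spontaneous and implanted tumours, with bars for the SE of the fit. Filled points passed an adjusted p of 0.05, which was 8 members in spontaneous and 35 in implanted tumours, and all points lie left of 0.

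Among genes of the chromosomes themselves, Top2a encodes the topoisomerase that untangles sister DNA molecules. Top2a measured 32.6 and 29.6 CPM in spontaneous PBS, 3.49 and 4.65 CPM in spontaneous cGAMP, 56.7 and 66.0 CPM in implanted PBS, and 8.02 and 3.63 CPM in implanted cGAMP. Replicates lay close together except in implanted cGAMP, and PBS and cGAMP libraries did not overlap in either model. Top2a fell in both models, by a log2 change of -2.67 ± 0.27 in spontaneous tumours (SE, adjusted p = 0.000207, limma) and of -3.27 ± 0.27 in implanted tumours (adjusted p = 5.69e-05). Mki67 encodes the Ki-67 protein that coats mitotic chromosomes, and it measured 23.3 and 25.5, 3.11 and 4.98, 50.3 and 47.3, and 7.14 and 0.90 CPM in the same order of groups. It was thus low in every cGAMP library, and it fell in both models, with log2 changes of -2.36 ± 0.52 (adjusted p = 0.0191) and -3.66 ± 0.52 (adjusted p = 0.00112). Ncapd2, a subunit of condensin, measured 6.90 and 2.68, 3.20 and 1.98, 9.0 and 9.39, and 1.74 and 1.33 CPM. Its spontaneous groups overlapped, with a change of -0.61 ± 0.39 (adjusted p = 0.338), while in implanted tumours it fell by 2.01 ± 0.39 (adjusted p = 0.00558). Ncapg, another condensin subunit, changed by -1.69 ± 0.52 in spontaneous tumours (adjusted p = 0.0637) and fell by 2.28 ± 0.52 in implanted tumours (adjusted p = 0.0113). Annotated small or predicted genes overlap exons of Top2a and Ncapd2 on the same strand, so their counts are uncertain to that extent.

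The chromosomal passenger complex corrects faulty attachments of the spindle, and Birc5 (survivin) is 1 of its 3 measured subunits. Birc5 measured 28.7 and 10.8, 3.35 and 3.80, 50.3 and 76.3, and 6.25 and 1.94 CPM in the same order of groups. The 2 spontaneous PBS libraries differed widely, yet both were above the cGAMP libraries. Birc5 fell in both models, with log2 changes of -2.04 ± 0.47 (adjusted p = 0.0236) in spontaneous tumours and -3.77 ± 0.47 (adjusted p = 0.000545) in implanted tumours, the largest change of any member. Aurkb, the kinase of the complex, and Cdca8 (borealin) fell in implanted tumours, with log2 changes of -3.19 ± 0.49 (adjusted p = 0.00163) and -2.81 ± 0.48 (adjusted p = 0.00303). In spontaneous tumours they changed by -1.38 ± 0.49 (adjusted p = 0.0971) and -1.40 ± 0.48 (adjusted p = 0.0886).

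Of the 5 cyclins and mitotic entry kinases, 0 passed the limma test in spontaneous tumours (3 at an unadjusted p under 0.05) and 5 fell in implanted tumours. Cdk1 measured 49.5 and 26.0, 15.0 and 21.0, 43.4 and 70.2, and 17.7 and 13.6 CPM in that order of groups. Its groups did not overlap, but the lower spontaneous PBS value stood close to the higher spontaneous cGAMP value. The change was -0.97 ± 0.31 in spontaneous tumours (adjusted p = 0.0701), and in implanted tumours Cdk1 fell by 1.76 ± 0.31 (adjusted p = 0.00339). Ccnb1 encodes cyclin B1, the partner of CDK1, and measured 7.63 and 1.57, 1.69 and 3.51, 9.19 and 14.1, and 2.09 and 1.07 CPM. A single spontaneous PBS library was above the others of its model, the change there was the smallest of the tested members (-0.44 ± 0.55, adjusted p = 0.644), and Ccnb1 fell by 2.29 ± 0.55 in implanted tumours (adjusted p = 0.0139). Aurka, a kinase of the spindle poles, measured 3.96 and 1.47, 1.22 and 0.501, 8.08 and 8.53, and 2.32 and 1.43 CPM. Its change of -1.71 ± 0.44 in implanted tumours (adjusted p = 0.0193) was among the smallest there. Ccnb2 and the kinase gene Plk1 fell in implanted tumours, with log2 changes of -2.21 ± 0.43 (adjusted p = 0.0053) and -3.02 ± 0.53 (adjusted p = 0.00336).

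The anaphase-promoting complex has Ube2c as its ubiquitin-conjugating enzyme and Cdc20 as an activator. Ube2c measured 23.4 and 4.69, 4.52 and 7.91, 43.1 and 70.6, and 6.88 and 4.67 CPM. Here replicate 2 of spontaneous PBS lay among the cGAMP libraries, while both implanted PBS libraries stood far above them. Ube2c changed by -0.75 ± 0.56 in spontaneous tumours (adjusted p = 0.417) and fell by 3.07 ± 0.56 in implanted tumours (adjusted p = 0.00411). Cdc20 changed by -0.87 ± 0.25 (adjusted p = 0.0547) and fell by 2.33 ± 0.25 (adjusted p = 0.000254). Cdca3, a trigger of mitotic entry, fell by 2.43 ± 0.44 in implanted tumours (adjusted p = 0.00405).

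The checkpoint kinase gene Bub1b measured 4.98 and 3.1, 1.32 and 2.62, 8.35 and 8.66, and 2.21 and 2.80 CPM. The implanted cGAMP libraries thus stood at about the level of the spontaneous cGAMP libraries. The change was -0.77 ± 0.34 in spontaneous tumours (adjusted p = 0.167), and in implanted tumours it was -1.44 ± 0.34 (adjusted p = 0.0133), the smallest size among the 35, for a gene that entered the test through implanted PBS alone. Bub1 fell by 2.67 ± 0.45 in implanted tumours (adjusted p = 0.00267). Ttk, the kinase that starts the checkpoint, was the member outside the filter, at 2.08 and 2.50, 0.0517 and 0.125, 2.21 and 4.29, and 0.945 and 0.288 CPM.

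Cenpa encodes the histone variant that marks centromeres. It measured 24.0 and 12.9 CPM in spontaneous PBS, 6.32 and 7.36 CPM in spontaneous cGAMP, 32.3 and 46.4 CPM in implanted PBS, and 7.69 and 5.76 CPM in implanted cGAMP. All 4 cGAMP libraries lay within a narrow range below all PBS libraries. Cenpa fell in both models, with log2 changes of -1.25 ± 0.28 (adjusted p = 0.0205) and -2.37 ± 0.28 (adjusted p = 0.000394). Cenpf, a large protein of the kinetochore, measured 22.3 and 8.23, 2.45 and 3.15, 42.2 and 44.3, and 5.0 and 1.29 CPM. It was lower in each cGAMP library than in any PBS library, and it fell in both models, with log2 changes of -1.96 ± 0.48 (adjusted p = 0.0292) and -3.58 ± 0.48 (adjusted p = 0.000794). Cenpe, a kinetochore motor, changed by -1.34 ± 0.39 in spontaneous tumours (adjusted p = 0.051) and fell by 2.90 ± 0.39 in implanted tumours (adjusted p = 0.000759).

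None of the 6 kinesins, the motors that move chromosomes and shape the spindle, passed in spontaneous tumours with limma (3 did at an unadjusted p under 0.05), and all 6 fell in implanted tumours. Kif23, a motor of the midzone needed for cytokinesis, measured 8.06 and 3.34, 2.13 and 1.70, 15.1 and 21.5, and 5.30 and 2.68 CPM. Its PBS libraries were the higher ones in both models, with a change of -1.11 ± 0.39 (adjusted p = 0.0981) and a called fall in implanted tumours of -1.98 ± 0.39 (adjusted p = 0.00595). Kif20a, another motor of the midzone, measured 2.38 and 0.80, 0.742 and 0.588, 5.63 and 5.56, and 0.699 and 0.566 CPM. Replicate 2 of spontaneous PBS was barely above the cGAMP libraries, and the values gave -0.57 ± 0.48 (adjusted p = 0.471) and a called fall in implanted tumours of -2.02 ± 0.48 (adjusted p = 0.0134). Kif11, the motor that pushes the poles apart, fell by 2.95 ± 0.63 in implanted tumours (adjusted p = 0.00831).

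Among the 5 spindle genes, 2 fell in spontaneous and 5 in implanted tumours. Prc1 cross-links the microtubules of the midzone and measured 17.1 and 12.9, 2.15 and 2.57, 23.3 and 42.1, and 2.58 and 2.50 CPM. The 4 cGAMP libraries were nearly level, and Prc1 fell in both models, with log2 changes of -2.24 ± 0.28 (adjusted p = 0.000802) and -3.19 ± 0.28 (adjusted p = 7.24e-05). Nusap1, which bundles spindle microtubules, fell in both models, with log2 changes of -1.82 ± 0.51 (adjusted p = 0.0464) and -3.09 ± 0.51 (adjusted p = 0.00243). Tpx2, Hmmr and Ckap2l fell in implanted tumours, with log2 changes of -2.54, -3.21 and -2.99. In cytokinesis, Racgap1, a protein of the spindle midzone, measured 11.05 and 2.92, 2.58 and 1.18, 13.5 and 16.7, and 5.26 and 1.30 CPM. Replicate 2 of spontaneous PBS and replicate 1 of implanted cGAMP departed most from their partners, with a change of -1.30 ± 0.58 (adjusted p = 0.172) and a called fall in implanted tumours of -2.08 ± 0.58 (adjusted p = 0.0276). Anln, which encodes anillin of the contractile ring, fell in both models, with log2 changes of -1.70 ± 0.39 (adjusted p = 0.0216) and -2.89 ± 0.39 (adjusted p = 0.000792). Pimreg, grouped with no other member, measured 6.90 and 1.5, 0.818 and 0.559, 12.1 and 20.0, and 0.854 and 0.424 CPM. Both implanted PBS libraries stood above the other 6, and Pimreg changed by -1.40 ± 0.53 in spontaneous tumours (adjusted p = 0.118) and fell by 3.35 ± 0.53 in implanted tumours (adjusted p = 0.00201).

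**Figure D4:**
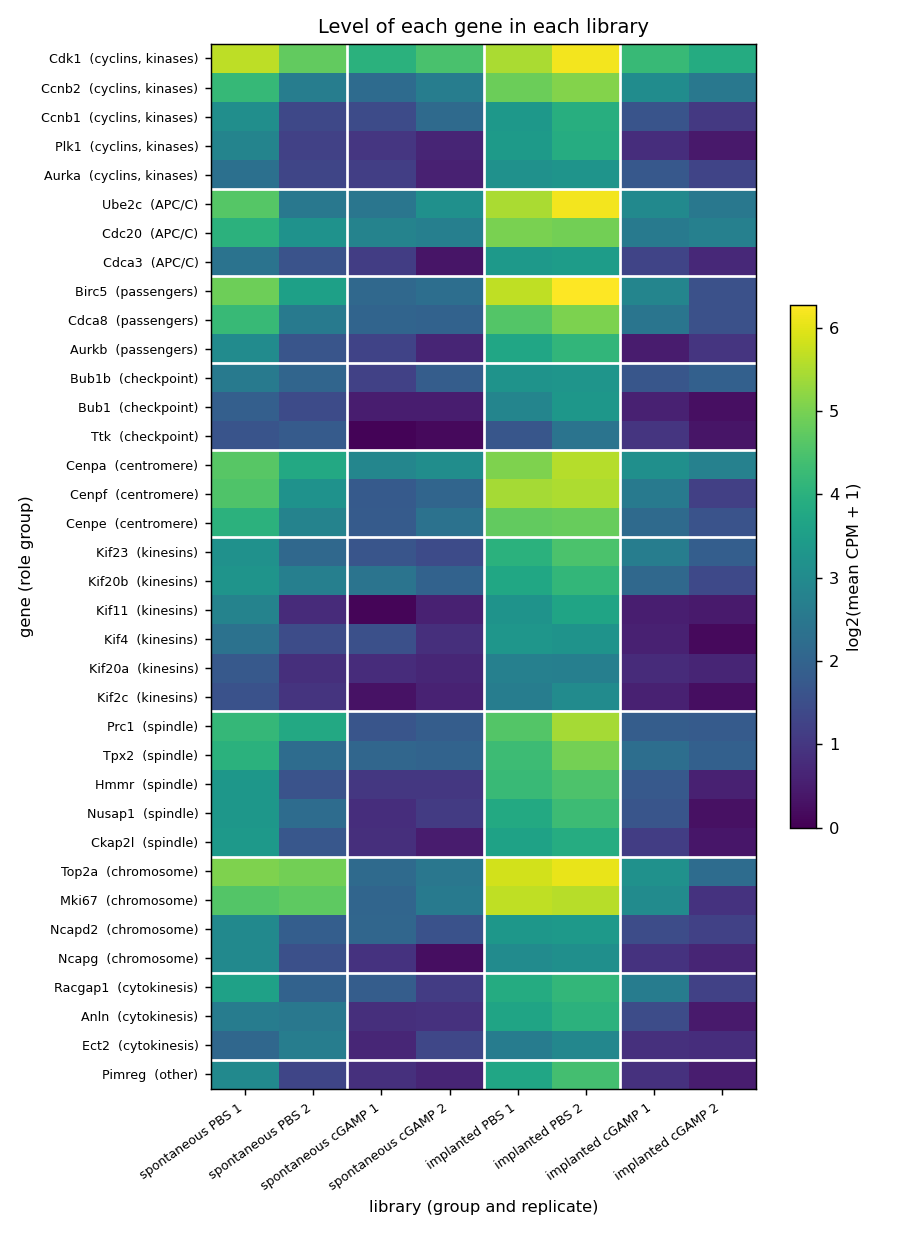
The heat map gives the level of each of the 36 members (rows, grouped by role) in each of the 8 libraries (columns) as log2(mean CPM + 1) over Pecam1-positive cells. The 2 implanted PBS columns are the brightest in nearly every row, replicate 2 of spontaneous PBS is darker than replicate 1 for most rows, and the 4 cGAMP columns are dark except for Cdk1, which kept 13.6 to 21.0 CPM.

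Whether the response differed between models was tested as an interaction. All 35 tested members had a larger fall in implanted tumours, where 5452 of the 10424 tested genes had a negative difference. The median difference was -1.41, against -0.02 over all tested genes. Of the members 0 passed the limma test, where 0.46% of all tested genes were called lower. At an unadjusted p under 0.05, 17 members were lower, as were 785 of the 10424 tested genes. The lowest adjusted p was 0.119, for Cdc20 (-1.46 ± 0.36). The largest differences were those of Ube2c (-2.32 ± 0.80, adjusted p = 0.263) and Kif4 (-2.15 ± 0.65, adjusted p = 0.201). Without replicate 1 of implanted cGAMP, 1 member passed, Mki67 at -2.35 (adjusted p = 0.019).

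Between PBS libraries, implanted above spontaneous, 4 of 35 members were higher, where 3.39% of all tested genes were called higher: Cdc20 by 1.36 ± 0.25 (adjusted p = 0.0139), Ube2c by 2.25 ± 0.56 (adjusted p = 0.0419), Cenpa by 1.09 ± 0.28 (adjusted p = 0.0464) and Kif23 by 1.60 ± 0.39 (adjusted p = 0.0395). The filter favours genes high in implanted PBS, through which alone 7 members passed, so being high there was partly a condition of entry. With no filter on low values 2 of 36 were called higher, with a median of 1.38. In the main fit the median was 1.40, against -0.06 over all tested genes. At an unadjusted p under 0.05, 30 members were higher and 0 lower. Of the 10424 tested genes 2527 differed in either direction, and 1603 of those 2527 were lower. For 33 of the 36 the libraries did not overlap, as for 21.5% of all tested genes. Called members numbered 4 in the main fit. This count was 0 without replicate 2 of either PBS group, 1 without replicate 1 of implanted PBS or either spontaneous cGAMP library, 14 without either implanted cGAMP library and 16 without replicate 1 of spontaneous PBS. Between cGAMP libraries, 0 of 35 members were called with limma, where 13.8% of all tested genes were, and 0 had an unadjusted p under 0.05. The median was -0.03, with 18 changes negative and 17 positive. Leaving out replicate 1 of implanted cGAMP, Mki67 was lower in implanted tumours (-1.38 on the log2 scale, adjusted p = 0.0101), and leaving out replicate 2, Top2a was higher by 0.84 (adjusted p = 0.0216).

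With the mitotic cells left out, 11 members still passed the filter. Of these, 1 was called lower in spontaneous tumours, where 631 of the 10337 tested genes were. In implanted tumours 2 were called lower, where 1472 of the 10337 tested genes were. Counts this small are not read as a result about the members. Cenpa fell in both models, with log2 changes of -0.93 ± 0.25 (adjusted p = 0.04) and -0.79 ± 0.25 (adjusted p = 0.0471), and Birc5 fell in implanted tumours by 1.94 ± 0.60 (adjusted p = 0.0457). The other 9 did not pass in either model with limma. Cdk1, the member most often detected outside mitotic cells, changed by -0.63 ± 0.19 (adjusted p = 0.0631) and -0.29 ± 0.19 (adjusted p = 0.312). Without these cells 0 members differed between PBS libraries with limma, and 0 had an unadjusted p under 0.05. The rule removes cells by 6 of the members, so levels of Birc5, Cdk1, Top2a, Mki67 and Ube2c in the remainder are limited by it. The call of Birc5 there thus carries no weight of its own.

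Inside mitotic cells, the summed level of the 36 members was 5602 and 3643 CPM in spontaneous PBS, 1480 and 2859 CPM in spontaneous cGAMP, 6153 and 6939 CPM in implanted PBS, and 2198 and 2256 CPM in implanted cGAMP. Each cGAMP library lay below each PBS library of its model, 2.13-fold and 2.94-fold between group means. The exact permutation p was 0.333 in each model and 0.0556 over both. The sum includes the 6 genes of the rule, so fold and p are partly drawn from the values that chose the cells. A sum without those genes was not taken. Mitotic cells of cGAMP libraries were few (12, 8, 20 and 5), and more of them sat at the edge of the rule: 30% and 48% had exactly 3 of the 6 genes in spontaneous and implanted cGAMP, against 13.7% and 18.3% in PBS. Cells with exactly 2, just outside the rule, numbered 67, 46, 105 and 50 in the same order of groups. A mitotic cell showed a median of 26 and 18 members in spontaneous PBS, 10 and 7.5 in spontaneous cGAMP, 20 and 23 in implanted PBS, and 8.5 and 13 in implanted cGAMP, at library medians of 16966 to 36853 UMIs per mitotic cell after cGAMP and 18540 to 25045 after PBS.

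Of the 30 members outside the rule, 27 were testable inside mitotic cells, on log2(mean CPM + 10) with a minimum of 50 CPM in 2 or more libraries, and Kif20a, Ttk and Ect2 were not. In spontaneous tumours 5 of 27 fell after cGAMP, where 1.43% of the 4196 tested genes were called lower, with a median of -1.01 against -0.12 over all. With no filter on low values 1 of 30 did. The 5 were Aurkb (-2.22 ± 0.43, adjusted p = 0.0154), Kif23 (-2.04 ± 0.44, adjusted p = 0.0256), Nusap1 (-2.38 ± 0.35, adjusted p = 0.00244), Ncapg (-2.62 ± 0.58, adjusted p = 0.0311) and Anln (-1.31 ± 0.31, adjusted p = 0.0414). In implanted tumours 7 of 27 fell, where 2.69% of tested genes were called lower, with a median of -1.40 against -0.10. With 4 or more of the 6 genes required, which leaves replicate 2 of implanted cGAMP out of the fit, 0 of 29 passed with limma (5 at an unadjusted p under 0.05, median -0.79). With a class defined by 6 genes that are not members 1 of 26 passed, and with no filter on low values 0 of 30 did (21 at an unadjusted p under 0.05). The 7 were Nusap1 (-2.11 ± 0.35, adjusted p = 0.00739), Prc1 (-2.04 ± 0.39, adjusted p = 0.0128), Ckap2l (-1.86 ± 0.37, adjusted p = 0.0155), Anln (-1.37 ± 0.31, adjusted p = 0.0284), Kif20b, Kif23 and Aurkb. Nusap1 measured 125 and 91.2 CPM inside spontaneous PBS, 18.5 and 7.60 CPM inside spontaneous cGAMP, 126 and 161 CPM inside implanted PBS, and 24.1 and 26.4 CPM inside implanted cGAMP cells. Its 4 PBS libraries thus stood well above the 4 cGAMP libraries. Cyclin B2 was otherwise: Ccnb2 measured 213 and 100, 125 and 245, 233 and 257, and 131 and 106 CPM inside, the single member with a positive spontaneous change. Between PBS libraries 0 of 27 members were higher inside implanted mitotic cells with limma, where 0.786% of tested genes were, and 1 had an unadjusted p under 0.05. The spontaneous count was 0 without replicate 1 of spontaneous PBS and 1 without either implanted PBS library. The implanted count was 0 without replicate 2 of either implanted group, 1 without replicate 1 of implanted PBS, 3 without replicate 1 of implanted cGAMP, and 17 and 15 without replicates 1 and 2 of spontaneous cGAMP.

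**Figure D5:**
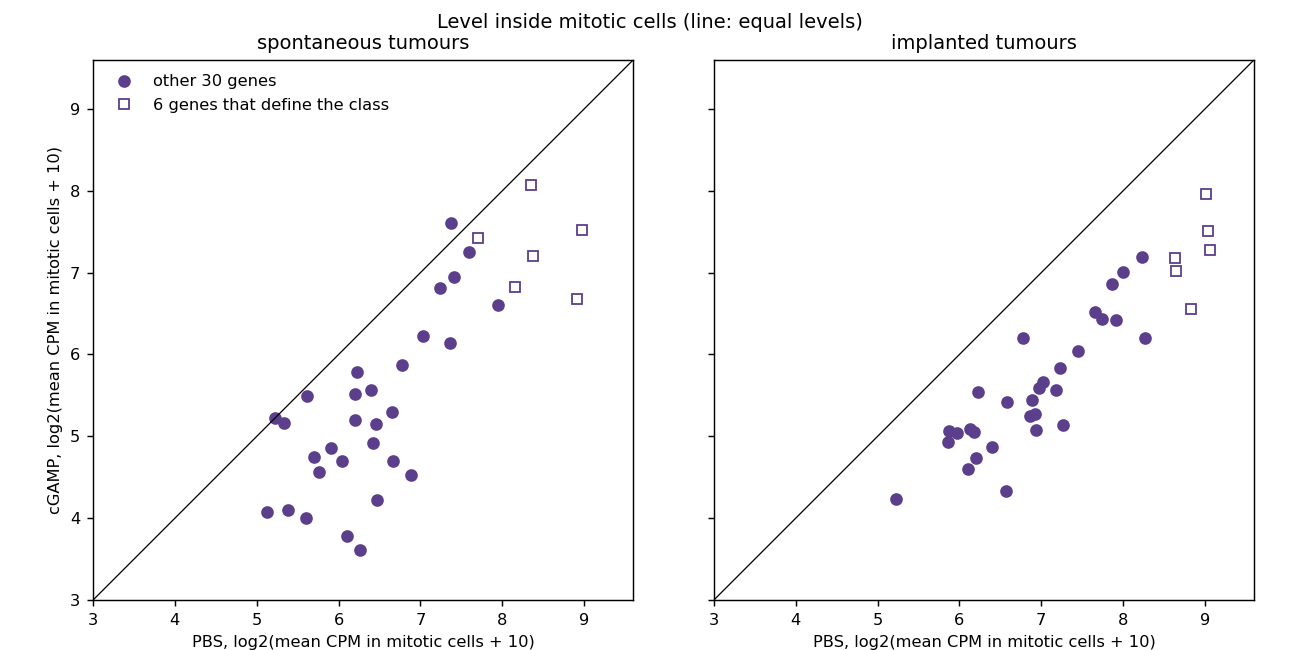
Each point is a member, placed by its group mean level inside mitotic cells after PBS (horizontal) and after cGAMP (vertical), on the log2(mean CPM + 10) scale, with spontaneous tumours left and implanted tumours right. Squares are the 6 genes that define the class, circles the other 30, and in implanted tumours the points lie below the line of equal levels.

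Cells in DNA replication were counted by 3 or more of Mcm5, Rrm2, Tyms, Pclaf, Clspn and Uhrf1. They made up 6.84% ± 0.732 and 2.87% ± 0.795 of cells in spontaneous tumours and 12.3% ± 0.410 and 2.84% ± 1.61 in implanted tumours (SD, n = 2, PBS first). Of these replicating cells, 63.4 and 36.8% were also mitotic in spontaneous PBS, 30.4 and 12.5% in spontaneous cGAMP, 62.5 and 67.4% in implanted PBS, and 34.6 and 12.5% in implanted cGAMP. The cGAMP libraries were again the lower ones, with differences of -28.6 and -41.4 percentage points (exact permutation p = 0.333 in each model and 0.0556 over both). Mitotic cells outside the replicating class were few, 9 and 5 in spontaneous PBS and 21 and 30 in implanted PBS. Set against the replicating mitotic cells of the same library, they held more of Cenpa alone among the members in 4 of 4 PBS libraries (0.52 ± 0.26, log2 scale, SD). That is 1 of 33 members (3.03%), under the 5.58% of the 4196 genes tested inside mitotic cells. Of the 33 members among those genes, 11 (33.3%) were lower in all 4, among them Cdk1 (-0.86 ± 0.20) and Kif23 (-0.53 ± 0.15), where 12.9% of all 4196 were. No test was made of this.

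The 46 other mitosis genes, of which 32 passed the filter, held 7 that fell in spontaneous and 27 that fell in implanted tumours, with medians of -0.86 and -1.89. Of all tested genes 7.59% (spontaneous) and 16.4% (implanted) were called lower, with a median of -0.10 in each model. The same filter, which favours genes high in implanted PBS, was used for this list and for the replication genes. The largest falls were those of Spc24, a kinetochore subunit (-1.85, adjusted p = 0.0117, limma, spontaneous), and of Ccna2, which encodes cyclin A2 (-3.31, adjusted p = 0.000563, implanted). The 32 replication genes, of which 30 passed, held 15 that fell in spontaneous and 22 in implanted tumours, with medians of -0.80 and -0.98. Rrm2, the small subunit of ribonucleotide reductase, fell with log2 changes of -2.39 (adjusted p = 0.0018) and -2.75 (adjusted p = 0.000469), and Tk1, the thymidine kinase, with -3.29 in implanted tumours (adjusted p = 0.000449). In both lists 0 genes passed the test of the difference between responses with limma. At an unadjusted p under 0.05, 5 and 3 were lower, as were 785 of the 10424 tested genes.

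Mitotic cells also carried the interferon response. Of 8 interferon-inducible genes, 7 rose inside mitotic cells in both models, where 2.86% (spontaneous) and 3.62% (implanted) of the 4196 tested genes were called higher, and Cxcl10 did not pass in either. Irf7, a transcription factor of that response, measured 5.42 and 7.06 CPM in mitotic cells of spontaneous PBS, 1356 and 1006 CPM in spontaneous cGAMP, 60.6 and 60.9 CPM in implanted PBS, and 1260 and 1566 CPM in implanted cGAMP. It rose by 6.18 ± 0.24 (adjusted p = 2.93e-07, limma) and 4.32 ± 0.24 (adjusted p = 1.2e-05).

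The groups had 2 libraries each, so the spread rests on 1 pair per group, and replicate 2 of spontaneous PBS held lower levels than replicate 1 for most members. Mouse, library and preparation cannot be told apart. The UMIs are taken at the 3′ end, and whether counting used strand is not given in the sources used here, so genes with antisense partners that overlap their exons (among them Nusap1 with Oip5, Ube2c with Tnnc2, and Prc1 with Rccd1) may share reads with them.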

How the data were processed

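Single-cell RNA sequencing (Chromium 3′ chemistry, v3) measured FACS-sorted tumour ECs in 8 libraries, grouped by their labels. Per the methods and the labels, the authors aligned reads to mm10 with Cell Ranger 3.0.0, filtered cells with Seurat 3.1.1 and deposited, per library, natural log values ln(1 + UMIs × 10000 / total of the cell). UMIs were worked back from these, whole for all values within a tolerance of 0.01, and 0 numeric columns were unused. Each cell was scaled to CPM and averaged over the cells of a library. The plan named limma for deposited log values, and a count model only if the files held counts. The files held log values, so limma was used: limma 3.58.1 (R 4.3.3) with a trended prior, all 8 libraries in 1 fit, Benjamini-Hochberg adjusted. The scripts were tested on simulated data. Shares were set against each other with exact permutation tests (Python 3.11.15, scipy 1.17.1). Depth ran from 7863535 to 16506086 UMIs per library. A mean of few mitotic cells is imprecise, and inside fits used libraries with at least 5 such cells. The limma p-values rest on the spread between the 2 libraries per group, pooled over the 4 groups. That spread is also drawn toward a trend over all tested genes. Levels were not divided by gene length. Mean level served to choose and order the members shown, and no claim rests on 1 gene having a higher level than another.

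Values per library are given for the member with the highest mean CPM of each role, the 3 largest and the 3 smallest changes of each response, and members whose responses differed. Of other lists, at most the 3 largest changes are named. Examples beyond these were chosen after their values were seen. The members, lists and tests were chosen with earlier results of these data known. Alternatives covered the pseudocount, filter, normalisation, cell set, mitotic rule, depth, replicate block and each library left out. The supplement's cell numbers differ from those deposited, and how the deposited cells were chosen is not settled.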

Additional observations from a re-analysis of the deposited data

How the results depend on the processing

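Counts of members called are given against the main value. Among all genes in the spontaneous response, 1968 of 10354 were called lower on summed UMIs and 631 of 10337 without mitotic cells. In the implanted response 1472 of 10337 were called lower without mitotic cells. For the spontaneous response (8), the count was 4 with no filter on low values, 33 on summed UMIs and 1 without mitotic cells, and it ran from 2 to 21 with 1 library left out. For the implanted response (35), it was 2 without mitotic cells and 20 to 35 with 1 library left out. For the difference of responses (0), it was 0 to 1 with 1 library left out. For implanted against spontaneous PBS (4), it was 2 with a pseudocount of 0.1, 21 with 5, 2 with no filter, 7 with median-of-ratios scaling, 0 in strictly endothelial cells (Cdh5 detected, with none of Ptprc, Epcam, Krt8, Krt18, Pdgfrb and Rgs5), 2 after thinning to 2000 UMIs, 0 without mitotic cells and 0 to 16 with 1 library left out. Without mitotic cells, Ube2c (-0.051) and Cenpa (-0.025) turned in direction there. For cGAMP libraries (0), it was 0 to 1. Inside mitotic cells, the spontaneous count (5) was 3 with a pseudocount of 50, 1 with no filter, 8 on summed UMIs and 0 to 6 with 1 library left out, and the implanted count (7) was 4 with a pseudocount of 1, 0 with no filter, 13 on summed UMIs, 0 with 4 or more of the 6 genes required, 1 with a class of 6 genes that are not members, and 0 to 17 with 1 library left out. The cause of these moves was not tested, apart from the fewer genes or cells that a setting leaves. The change in mitotic share in spontaneous tumours (-2.91 points) was -1.54 after thinning and -4.12 to -1.69 with 1 library left out. In implanted tumours (-9.34) it was -12.0 with 2 or more genes required, -7.92 with 4 or more, -5.32 after thinning, -8.09 in strictly endothelial cells and -10.1 to -8.53 with 1 library left out.

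With the replicate number as a replicate block the counts were 9 (spontaneous), 35 (implanted), 0 (difference), 2 (PBS libraries) and 0 (cGAMP libraries), and inside mitotic cells 5, 6 and 0. Same-numbered libraries did not deviate together (r from -0.216 to 0.126 over 6 pairs of groups), so the numbers do not pair the samples. A crossed pairing, chosen after seeing the data, gave 9, 35, 0, 6 and 0.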
